A study of Mus musculus with 4 samples.

Results

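Solute carriers are membrane proteins that move amino acids, sugars, vitamins, metals and metabolic acids across cell and organelle membranes, and their genes carry the prefix Slc in the mouse. The genes described here are those whose symbol has the form Slc, a family number, the letter a and a member number, leaving out Slc12a2, Slc34a2 and Slc22a18, and that reached at least 20 CPM in at least 1 of 4 tracheal libraries, CPM being counts of unique molecular identifiers (UMIs), 1 for each tagged transcript, scaled to the total of the library. Of 343 features with such a symbol, 288 had a UMI in some library and 86 met this limit, against 6980 of all 30907 features. The members were thus chosen by their measured levels, and those levels are given as a description. Of the 86 members, 45 reached 20 CPM in all 4 libraries, 17 in 3, 9 in 2 and 15 in 1, of which 10 reached it in the iBC donor-derived library, 3 in the iBC endogenous library and 2 in the primary donor-derived library. Slc4a1ap, Slc9a3r1 and Slc9a3r2 have matching symbols but encode adaptor and scaffold proteins, and were kept apart from the carriers.

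The cells came from tracheas of adult wild type mice that were injured in the airway with the detergent polidocanol (2%) and received 6000000 cells in the trachea 5 hours later. The iBC recipient received iBCs, basal cells made in culture from pluripotent stem cells, carries the strain label 129 X1/S1, and was examined after 192 days. The primary BC recipient received primary basal cells (BCs) taken from airways, carries the strain label C57BL/6, and was examined after 69 days. After digestion with pronase, live cells (Calcein Blue+) of each recipient were sorted into GFP+ donor-derived and GFP- endogenous cells, and each fraction gave 1 library on the 10X Chromium system. All 4 groups had therefore been injured, and an uninjured trachea is not analysed here. Whether the strain label of a donor-derived library describes the donor cells or the host is not stated. Each group holds 1 library, so no difference below has a replicate check and no test was made. Intervals are exact 95% Poisson intervals, or exact Clopper-Pearson intervals for shares, and cover counting error only. Between the recipients, donor cell kind, days and strain label differ together and cannot be told apart.

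In the airway, basal cells are the stem cells that renew secretory and ciliated cells, which make and move the fluid that covers the surface. Carriers on the apical side take up peptides, glucose, short organic acids and vitamins from that fluid, carriers on the basal side bring in amino acids and bicarbonate, and carriers of mitochondria and of the Golgi supply respiration and glycosylation. Amino acid exchangers such as xCT also set how much cysteine a cell has for glutathione.

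The libraries held 1596 barcodes and 21504563 UMIs for iBC donor-derived cells, 1891 and 21813234 for iBC endogenous cells, 1876 and 26625123 for primary donor-derived cells, and 1421 and 24808125 for primary endogenous cells. The 2 libraries of a recipient shared no barcode, and each of 2 pairs across recipients, both with iBC donor-derived cells, shared 1. After filtering 6520 of 6784 cells remained. They were gated on fixed marker genes into basal, secretory and ciliated cells: 398, 340 and 261 iBC donor-derived cells, 588, 550 and 352 iBC endogenous cells, 1022, 277 and 164 primary donor-derived cells, and 505, 286 and 203 primary endogenous cells. The gates are ranges of a marker score rather than clusters, so that their marker levels follow from the rule, and 34.7% of iBC donor-derived cells fell in no gate, against 15.1% to 19.7% in the other 3 libraries. Summed levels of 8 secretory markers still differed inside the basal gate, at 5217 CPM in iBC donor-derived cells, 14146 CPM in iBC endogenous, 23008 CPM in primary donor-derived and 20555 CPM in primary endogenous cells. In the ciliated gate they stood at 25484, 13421, 16401 and 12996 CPM in the same order, and the part of such admixture in the results below was not tested. The 7 immune markers summed to at most 4.78 CPM in any gated sum, with all 7 at 0 in both iBC ciliated sums. Of the 5 fibroblast markers, Dcn carried the signal in basal sums (475 to 649 CPM) while Col1a1 and Col1a2 were at 0 there.

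The promoters of 3 members on which the results turn are shown because, among the members called between donor-derived and endogenous basal cells of the iBC recipient, Slc16a11 was the furthest lower and Slc7a11 the furthest higher, and Slc1a3 was the member that preferred basal cells. They are Slc7a11 (xCT, the cystine-glutamate exchanger), Slc16a11 (a member of the monocarboxylate transporter family) and Slc1a3 (GLAST, a sodium-coupled glutamate and aspartate transporter). Each is given as the 250 bases before the RefSeq start in GRCm38.p6, read 5′ to 3′ on the gene's strand, with 1 kind of motif in capitals. Slc7a11 lies on the minus strand of chromosome 3 (window chr3:50443614-50443863) and its capitals are 2 copies of the ATF4 amino acid response element, at -66 to -59 and, on the other strand, at -47 to -40 from the start.
Slc7a11: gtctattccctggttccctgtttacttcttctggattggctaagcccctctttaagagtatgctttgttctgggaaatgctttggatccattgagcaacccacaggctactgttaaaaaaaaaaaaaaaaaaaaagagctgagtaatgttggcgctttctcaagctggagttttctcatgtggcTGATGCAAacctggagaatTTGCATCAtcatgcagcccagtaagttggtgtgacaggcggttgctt
Slc16a11 lies on the plus strand of chromosome 11 (window chr11:70213660-70213909, inside the longer GENCODE gene span) and its capitals are a CCAAT box read on the other strand at -209 to -205.
Slc16a11: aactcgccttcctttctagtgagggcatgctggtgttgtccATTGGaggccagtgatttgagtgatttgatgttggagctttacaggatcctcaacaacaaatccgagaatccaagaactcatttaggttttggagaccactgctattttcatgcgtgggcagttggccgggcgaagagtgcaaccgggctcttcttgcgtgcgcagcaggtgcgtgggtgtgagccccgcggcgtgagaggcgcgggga
Slc1a3 lies on the minus strand of chromosome 15 (window chr15:8710808-8711057) and its capitals match the letters searched for a TATA box, on the other strand at -161 to -156. The match is of letters only and does not mark a working TATA box.
Slc1a3: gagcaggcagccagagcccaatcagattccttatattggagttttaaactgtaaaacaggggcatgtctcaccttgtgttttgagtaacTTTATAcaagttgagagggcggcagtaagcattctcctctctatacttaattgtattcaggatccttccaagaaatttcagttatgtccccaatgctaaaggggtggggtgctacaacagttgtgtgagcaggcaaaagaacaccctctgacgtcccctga
The windows of Slc7a11 and Slc1a3 also hold a CCAAT box, which is not capitalised here. Of the 86 members, 64 had a promoter sequence in the table used. The ATF4 element, searched as TGATGNAA on both strands, was found in 2 of these 64 (3.13%, Slc7a11 and Slc50a1) and in 3.91% of 27025 genes; CCAAT was found in 23 (35.9%) against 37.5%; and TATAAA in 5 (7.81%) against 14.3%. A match is a string of letters in this window and says nothing of binding.

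Across whole libraries the members' CPM summed to 3889 in iBC donor-derived cells, 4215 in iBC endogenous cells, 5148 in primary donor-derived cells and 5014 in primary endogenous cells. The 17 Slc25 genes were counted together as mitochondrial carriers, although Slc25a17 among them is the carrier of peroxisomes. They made up the largest summed level in iBC donor-derived cells (1359 CPM, against 1126 CPM in iBC endogenous cells), and the 14 amino acid carriers came next (812 against 918 CPM). The amino acid carriers reached 1457 CPM in primary donor-derived and 1244 CPM in primary endogenous cells, close to the Slc25 genes, Slc25a17 included, at 1465 and 1454 CPM. Slc6a6 alone made up most of the amino acid sum in both primary libraries, at the levels given below, and that closeness rests on it. Without Slc6a6, the remaining amino acid carriers together were higher in iBC donor-derived than in iBC endogenous cells. The 6 carriers of mono- and dicarboxylates summed to 143 CPM in iBC donor-derived cells and 390 CPM in iBC endogenous cells, against 382 and 434 CPM in primary donor-derived and endogenous cells. The 14 carriers of metals stood near each other in all 4 libraries, at 494, 485, 452 and 468 CPM.

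**Figure D1:**
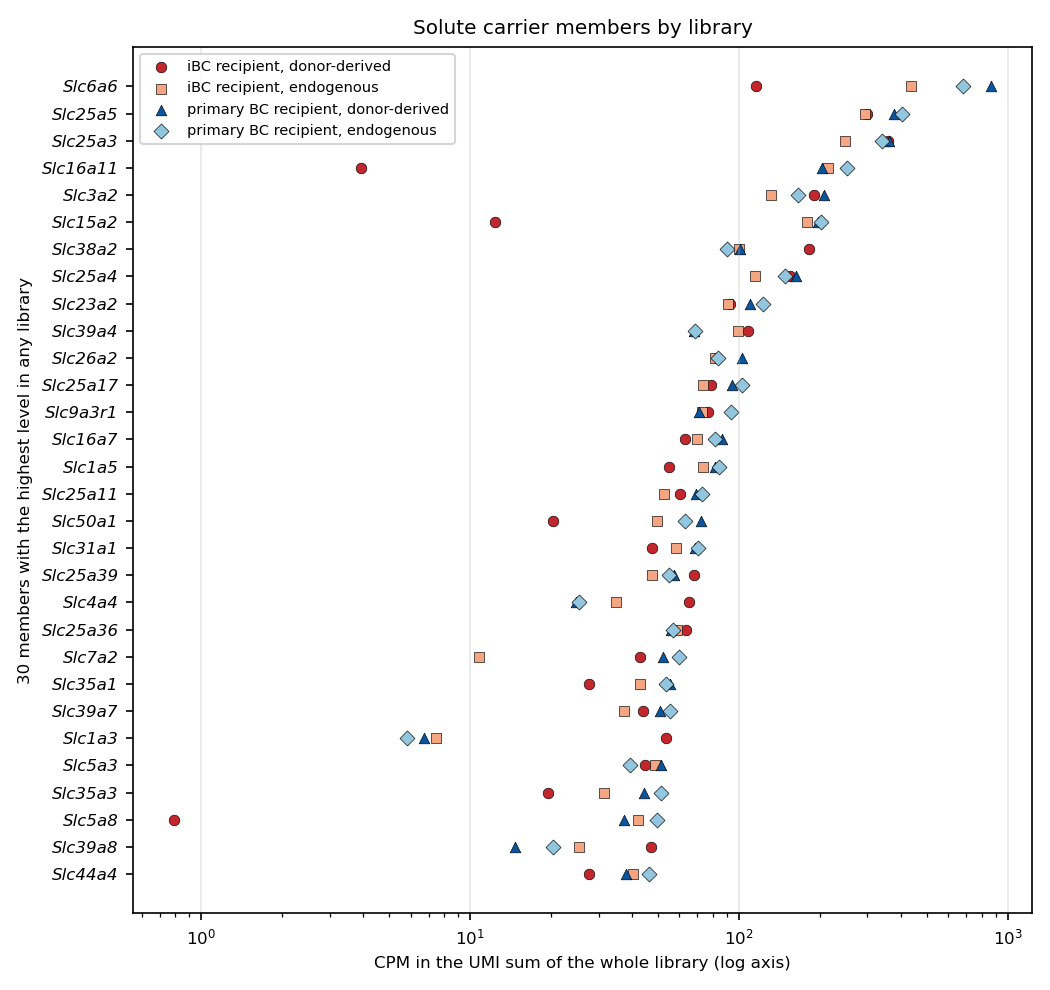
Levels of the 30 highest members (rows) in the UMI sum of each whole library, in CPM on a log axis, with 1 point per library and no replicate. Most members have their 4 points close together, while Slc16a11 and Slc15a2 have the iBC donor-derived point far left of the other 3 (3.91 and 12.3 CPM, against 178 to 253 CPM elsewhere).

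Slc6a6, the sodium-coupled transporter of taurine, had the highest level of any member, on the plus strand of chromosome 6 at 91684053 to 91759066 (GRCm38, GENCODE vM21, as are the gene spans below). It stood at 115 CPM in iBC donor-derived cells and 438 CPM in iBC endogenous cells, against 866 CPM in primary donor-derived and 678 CPM in primary endogenous cells. The ADP/ATP carriers Slc25a5 and Slc25a4 and the phosphate carrier Slc25a3, which feed ATP synthesis in mitochondria, followed with much closer values. Slc25a5 was at 298, 295, 378 and 403 CPM in iBC donor-derived, iBC endogenous, primary donor-derived and primary endogenous cells, Slc25a3 at 357, 247, 361 and 339 CPM, and Slc25a4 at 154, 114, 163 and 148 CPM. Slc3a2, the heavy chain that carries several amino acid exchangers to the membrane, was at 190, 131, 207 and 165 CPM in the same order. UMIs of different genes are captured with different efficiency, so that the order of genes is approximate.

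At the edge of the limit, the 4 lowest members reached 21.2 CPM (Slc30a7), 20.6 CPM (Slc2a12), 20.4 CPM (Slc41a1) and 20.2 CPM (Slc38a9) in their highest library. The 4 nearest features outside it reached 19.6 CPM (Slc43a2), 19.5 CPM (Slc25a21), 19.2 CPM (Slc35a5) and 18.7 CPM (Slc25a13). Slc25a21, a mitochondrial carrier of oxoadipate, was therefore left out although its level was 0.372 CPM in iBC donor-derived cells, 13.4 CPM in iBC endogenous, 19.5 CPM in primary donor-derived and 15.04 CPM in primary endogenous cells.

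Many members had a preferred class that recurred in every library. A member was counted for a class when its level, with 5 CPM added, was at least 2-fold above each of the other 2 classes in all 4 libraries. Ciliated cells had 14 such members of 86, a share of 16.3% beside 13.3% of the 8812 features measured, basal cells had 1 beside 4.78%, and secretory cells had 2 beside 0.67%. The ciliated share was near that of all features. With trimmed-mean (TMM) scaling between the sums it was 7 members, namely Slc9a3r1, Slc2a12, Slc23a1, Slc23a2, Slc13a2, Slc25a17 and Slc27a1.

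Basal cells were led by Slc1a3, at 129 CPM in iBC donor-derived, 22.2 CPM in iBC endogenous, 13.3 CPM in primary donor-derived and 14.4 CPM in primary endogenous basal cells. In ciliated cells of the same libraries Slc1a3 was at 2.02, 0, 0 and 1.17 CPM. Every library thus had more Slc1a3 in basal cells than in either other class, and iBC donor-derived basal cells had the most.

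Secretory cells were led by Slc39a8 (ZIP8, an importer of zinc and manganese) and Slc4a4 (NBCe1, a sodium-bicarbonate cotransporter). Slc39a8 stood at 99.0 CPM in iBC donor-derived, 54.8 CPM in iBC endogenous, 45.02 CPM in primary donor-derived and 56.7 CPM in primary endogenous secretory cells, and at 3.38 CPM or less in every basal sum. Slc4a4 stood at 114, 54.9, 45.7 and 47.5 CPM in secretory cells in the same order, with 24.3, 13.8, 14.6 and 16.7 CPM in basal cells. For both genes the iBC donor-derived secretory cells were the highest of the 4.

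By the ratio over the other classes, ciliated cells were led by Slc9a3r1, which encodes the scaffold protein NHERF1, at 274, 247, 283 and 315 CPM in iBC donor-derived, iBC endogenous, primary donor-derived and primary endogenous ciliated cells. Both sodium-coupled vitamin C transporters were high in these cells. Slc23a2 was at 312, 290, 356 and 392 CPM, and Slc23a1 at 152, 133, 156 and 143 CPM, in the same order of libraries. In basal cells the Slc23a1 level was 1.06 CPM or less in all 4 libraries, while Slc23a2 was at 74.98, 55.8, 101 and 100.3 CPM there. Slc2a12, a glucose transporter of the GLUT family, was at 74.0, 66.9, 67.7 and 58.4 CPM in ciliated cells and at 7.76 CPM or less in basal cells. Slc25a17, the carrier of peroxisomes, was at 208, 179, 224 and 251 CPM in ciliated cells, and Slc39a9, a zinc transporter of the ZIP family, at 94.8, 91.6, 90.3 and 94.3 CPM. Slc13a2, a carrier of citrate and succinate, was the ciliated member that varied most between libraries, at 22.8, 91.1, 64.3 and 59.6 CPM. The other 7 ciliated members were Slc27a1 and Slc27a2 (fatty acid transport proteins), Slc44a3, Slc28a3 (a nucleoside transporter), Slc35a2 (the UDP-galactose transporter of the Golgi), Slc45a4 and Slc17a5 (sialin, the sialic acid exporter of lysosomes).

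**Figure D2:**
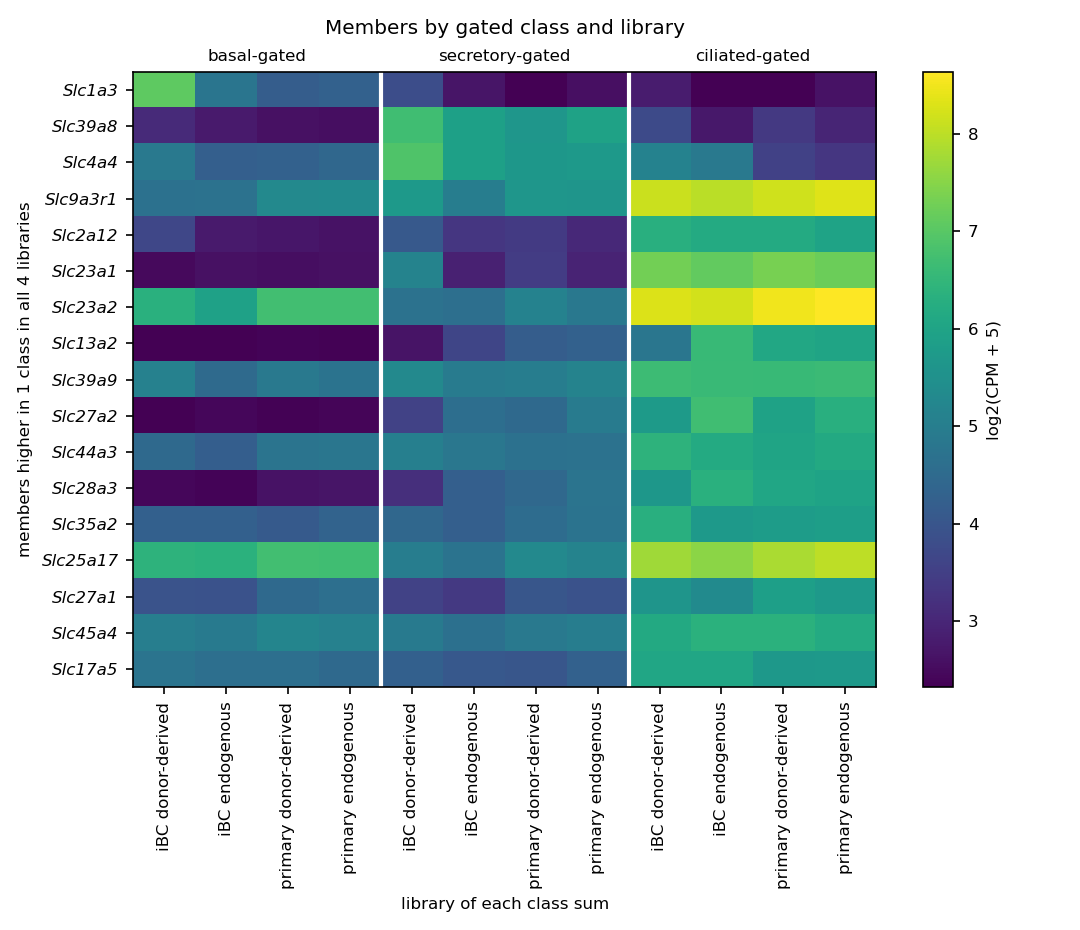
Heat map of the 17 members (rows) that were at least 2-fold higher in 1 class in all 4 libraries; columns are the 12 sums of gated cells (3 classes, 4 libraries) and the colour is log2 of CPM plus 5. Ciliated columns are bright for 14 rows, and Slc1a3 is bright in basal columns, most so in iBC donor-derived cells at 129 CPM.

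In whole libraries of the iBC recipient, Slc16a11, Slc5a8, Slc15a2 and Slc6a6 were among the members lower in donor-derived than in endogenous cells, and Slc1a3, Slc16a12 and Slc7a2 among those higher. For each pair of sums a member was called higher or lower when its levels, with 5 CPM added, were at least 2-fold apart and it had at least 20 CPM in either sum. In whole libraries 80 members had that level, of which 5 were called higher (3.19% of all 6545 features were) and 9 lower (3.01% of all features). As in bulk samples, a whole-library difference can come from fewer cells of a type or from less RNA per cell, which cannot be told apart in these sums. In basal cells 7 of 65 members were called higher (3.84% of features) and 4 lower (2.96%). In secretory cells 5 of 63 were higher (5.81%) and 7 lower (3.18%), and in ciliated cells 2 of 72 were higher (2.84%) and 10 lower (4.15%). The secretory and ciliated shares of members called higher, 7.94% and 2.78%, were near those of all features, and the other shares of members were 6.15% to 13.9%. Slc1a3, Slc7a11, Slc16a12 and Slc9a3r2, called higher in whole libraries and basal cells, reached 20 CPM only in the iBC donor-derived whole library. Slc13a2 and Slc1a1, called lower in ciliated cells, reached it only in the iBC endogenous library. They became members through the library in which they were high, so the counts above are partly set by that choice. The median feature itself stood above 0 in all 4 comparisons, by 0.20 on the log2 scale in whole libraries, 0.14 in basal, 0.29 in secretory and 0.09 in ciliated cells, and the members' medians were 0.09, 0.13, 0.29 and -0.03. TMM scaling brought the median feature of whole libraries to 0.02 and changed the split to 3 higher and 12 lower in whole libraries, where Slc7a11 and Slc9a3r2 were no longer called, and to 5 higher and 11 lower in secretory cells. The median absolute deviation of the members' log2 ratios in whole libraries was 0.32, beside 0.16 for all features, and 51 of the 66 members not called lay within 0.5 of 0.

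**Figure D3:**
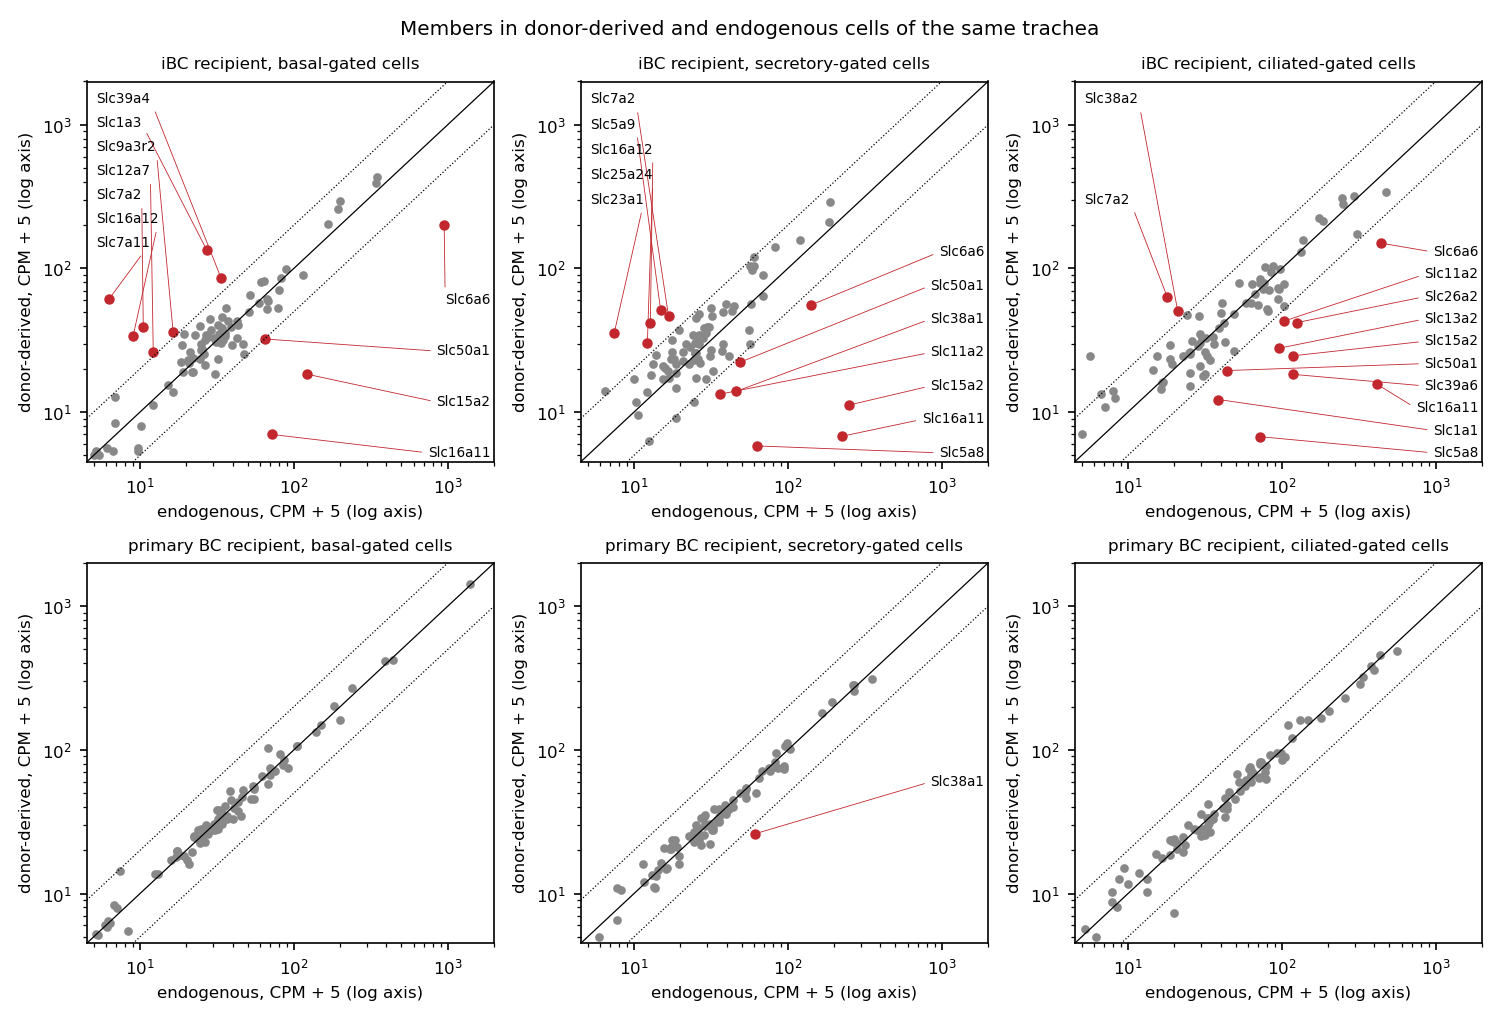
Each panel sets the members' levels in donor-derived cells (vertical axis) against endogenous cells (horizontal axis) of one recipient and class, as CPM plus 5 on log axes; the top row is the iBC recipient and the bottom row the primary BC recipient. Red points with names are members called at 2-fold (dotted lines) with at least 20 CPM in either sum: the iBC panels have 11, 12 and 12 of them in basal, secretory and ciliated cells, and the primary BC panels have 0, 1 and 0.

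Among amino acid carriers, Slc6a6 had the largest difference in level. In basal cells it was at 195 CPM in iBC donor-derived and 944 CPM in iBC endogenous cells, against 1416 CPM in primary donor-derived and 1390 CPM in primary endogenous cells. In secretory cells the levels were 50.6, 136, 211 and 190 CPM in the same order, and in ciliated cells 145, 436, 380 and 375 CPM. The iBC donor-derived cells were thus the lowest of the 4 in every class, by 4.83-fold (4.51 to 5.18), 2.69-fold (2.38 to 3.06) and 3.01-fold (2.73 to 3.33) below endogenous cells of the same recipient in basal, secretory and ciliated cells. After thinning each cell to 5000 UMIs, 55.0% of iBC donor-derived basal cells had a Slc6a6 UMI (49.9% to 59.95%), against 96.7% of iBC endogenous basal cells (94.9% to 98.1%). The unthinned shares were 76.4% and 98.8%, at median depths of 10366.5 and 7825.5 UMIs per cell, and 5 and 36 shallower cells were left out. Taurine uptake by this carrier is known for its part in cell volume control.

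Slc7a11, on the minus strand of chromosome 3 at 49892526 to 50443614, stood furthest above its endogenous level in basal cells. It was at 55.9 CPM (281 UMIs) in iBC donor-derived and 1.27 CPM (6 UMIs) in iBC endogenous basal cells, a 44.03-fold difference with an interval of 19.98 to 121. Primary donor-derived basal cells were at 9.28 CPM (107 UMIs) and primary endogenous basal cells at 2.42 CPM (16 UMIs). In secretory cells the summed levels were close, at 18.1, 19.6, 20.1 and 20.1 CPM in the same order, and in ciliated cells all 4 were at 7.67 CPM or less. Only a minority of basal cells carried these UMIs, 9.67% after thinning in iBC donor-derived cells (6.93% to 13.03%; 14.6% unthinned) against 0.725% in iBC endogenous cells (0.198% to 1.84%; 1.02% unthinned). Shares of cells with a UMI were also higher in the other classes after thinning. In secretory cells they were 9.47% in iBC donor-derived cells (6.57% to 13.1%; 20.6% unthinned) and 3.60% in iBC endogenous cells (2.18% to 5.56%; 9.45% unthinned), although the summed levels were close. In ciliated cells they were 3.89% in iBC donor-derived cells (1.88% to 7.04%; 7.66% unthinned) and 0.291% in iBC endogenous cells (0.00736% to 1.61%; 2.27% unthinned). Cells in no gate were at 40.3, 18.6, 2.27 and 11.6 CPM. Immune cells gated in the primary endogenous library held 11.9% of the Slc7a11 UMIs there.

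Slc1a3, on the minus strand of chromosome 15 at 8634124 to 8710764, was 5.79-fold higher (4.71 to 7.19) in iBC donor-derived than in iBC endogenous basal cells, at the levels given above. Basal cells with a UMI after thinning made up 43.3% of iBC donor-derived cells (38.3% to 48.3%), 10.5% of iBC endogenous, 6.53% of primary donor-derived and 6.76% of primary endogenous cells. The unthinned shares were 72.1%, 14.97%, 12.9% and 15.4%. Ciliated cells had a thinned share of 0.778% or less in all 4 libraries, at median depths of 11861 to 19246 UMIs, and 0 of 344 in iBC endogenous cells, whose upper bound is 1.07%. Slc1a3 was counted for basal cells because it was lower in ciliated cells of all 4 libraries. The low ciliated share follows from that choice and gives no background level.

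The cationic amino acid transporter Slc7a2 (CAT2), which carries arginine, was called higher in iBC donor-derived cells in all 3 classes, although it was the endogenous library of that recipient that stood apart. In basal cells it was at 34.2 CPM in iBC donor-derived and 5.50 CPM in iBC endogenous cells, against 29.5 CPM in primary donor-derived and 40.1 CPM in primary endogenous cells. In secretory cells the levels were 41.5, 11.8, 77.5 and 78.0 CPM, and in ciliated cells 58.1, 13.01, 87.7 and 79.1 CPM, in the same order. The iBC endogenous cells were the lowest of the 4 in every class, with differences of 6.22-fold (4.10 to 9.79), 3.53-fold (2.80 to 4.47) and 4.47-fold (3.31 to 6.12) between the iBC recipient's fractions. Slc38a2 (SNAT2), a sodium-coupled carrier of small neutral amino acids, was at 45.7 CPM in iBC donor-derived and 16.03 CPM in iBC endogenous ciliated cells (2.85-fold, 2.13 to 3.84), against 16.7 and 18.5 CPM in primary donor-derived and endogenous ciliated cells. Its basal levels were 289, 194, 144 and 144 CPM, a difference under 2-fold within either recipient. Slc38a1 (SNAT1), its close relative, was lower in secretory cells, at 8.96 CPM in iBC donor-derived and 41.3 CPM in iBC endogenous cells (4.61-fold lower, 3.47 to 6.24). Slc1a1 (EAAC1), a carrier of glutamate and cysteine, was 4.66-fold lower (3.03 to 7.44) in ciliated cells, at 7.23 CPM in iBC donor-derived and 33.7 CPM in iBC endogenous cells, but the primary ciliated cells also had little of it, at 14.0 CPM (donor-derived) and 10.1 CPM (endogenous). The glutamine carrier Slc1a5 (ASCT2), at 54.8 CPM in iBC donor-derived and 73.6 CPM in iBC endogenous whole libraries, and the arginine carrier Slc7a1 (CAT1), at 28.2 and 18.9 CPM, were not called.

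The monocarboxylate carriers held the widest gaps. Slc16a11, on the plus strand of chromosome 11 at 70212752 to 70216417 and studied in human cells as a proton-coupled carrier of pyruvate, was at 1.79 CPM (11 UMIs, interval 0.894 to 3.20) in iBC donor-derived secretory cells and 221 CPM in iBC endogenous secretory cells, against 308 CPM in primary donor-derived and 348 CPM in primary endogenous secretory cells. In ciliated cells it was at 10.7, 408, 456 and 429 CPM, and in basal cells at 1.99, 66.6, 69.8 and 87.2 CPM, in the same order. The other 3 libraries thus had abundant Slc16a11 and iBC donor-derived cells nearly none, with folds of 123 (68.7 to 247), 38.1 (27.5 to 54.3) and 33.5 (17.98 to 70.6) in secretory, ciliated and basal cells. Cells in no gate had the same order, at 1.69 CPM in iBC donor-derived, 128 CPM in iBC endogenous, 182 CPM in primary donor-derived and 190 CPM in primary endogenous cells. Immune-gated cells of the primary endogenous library, taken as a class without this epithelial transcript, were at 4.66 CPM. That value comes from 68 cells with 0.0672% of the 5953 Slc16a11 UMIs in filtered cells there. In the iBC endogenous library 22 immune-gated cells held 0.0687% of 4367 such UMIs. Both rest on very few UMIs and give no firm background level. At 5000 UMIs per cell, 0.592% of iBC donor-derived secretory cells had a Slc16a11 UMI (0.0717% to 2.12%; 1.18% unthinned), against 67.6% of iBC endogenous, 74.0% of primary donor-derived and 77.3% of primary endogenous secretory cells (unthinned 89.6%, 96.8% and 98.3%). The secretory cells left out as shallower numbered 2, 22, 0 and 0, and the unthinned median depths were 17155.5, 16535.5, 21925 and 25557.5 UMIs.

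Slc5a8 (SMCT1), a sodium-coupled carrier of lactate and other short acids on chromosome 10 (88885992 to 88929515, plus strand), had the same pattern at lower levels. Its secretory levels were 0.814 CPM (5 UMIs) in iBC donor-derived, 57.6 CPM in iBC endogenous, 69.6 CPM in primary donor-derived and 81.7 CPM in primary endogenous cells, and its ciliated levels 1.73 CPM (6 UMIs), 67.6, 77.3 and 68.3 CPM. The folds within the iBC recipient were 70.8 (30.1 to 219) and 38.98 (17.7 to 107). In basal cells Slc5a8 stayed under 20 CPM in all 4 libraries and was not compared. Slc16a12, a member of the same family that carries creatine in human cells, was the higher one in iBC donor-derived cells. It was at 28.8 CPM in iBC donor-derived and 4.02 CPM in iBC endogenous basal cells, at 36.8 and 7.77 CPM in secretory cells, and at 19.7 CPM (68 UMIs) and 0.697 CPM (3 UMIs) in ciliated cells. Primary cells, donor-derived or endogenous, had at most 2.95 CPM of Slc16a12 in any class. It was called higher in basal (7.18-fold, 4.43 to 12.3) and secretory cells (4.74-fold, 3.61 to 6.28), while the ciliated sums stayed just under the 20 CPM needed for a call. Slc13a2 was 3.99-fold lower (3.12 to 5.14) in iBC donor-derived ciliated cells. Slc16a7 (MCT2), a carrier of lactate and pyruvate, at 62.9, 69.8, 86.5 and 81.4 CPM in whole libraries, differed by less than 2-fold.

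**Figure D4:**
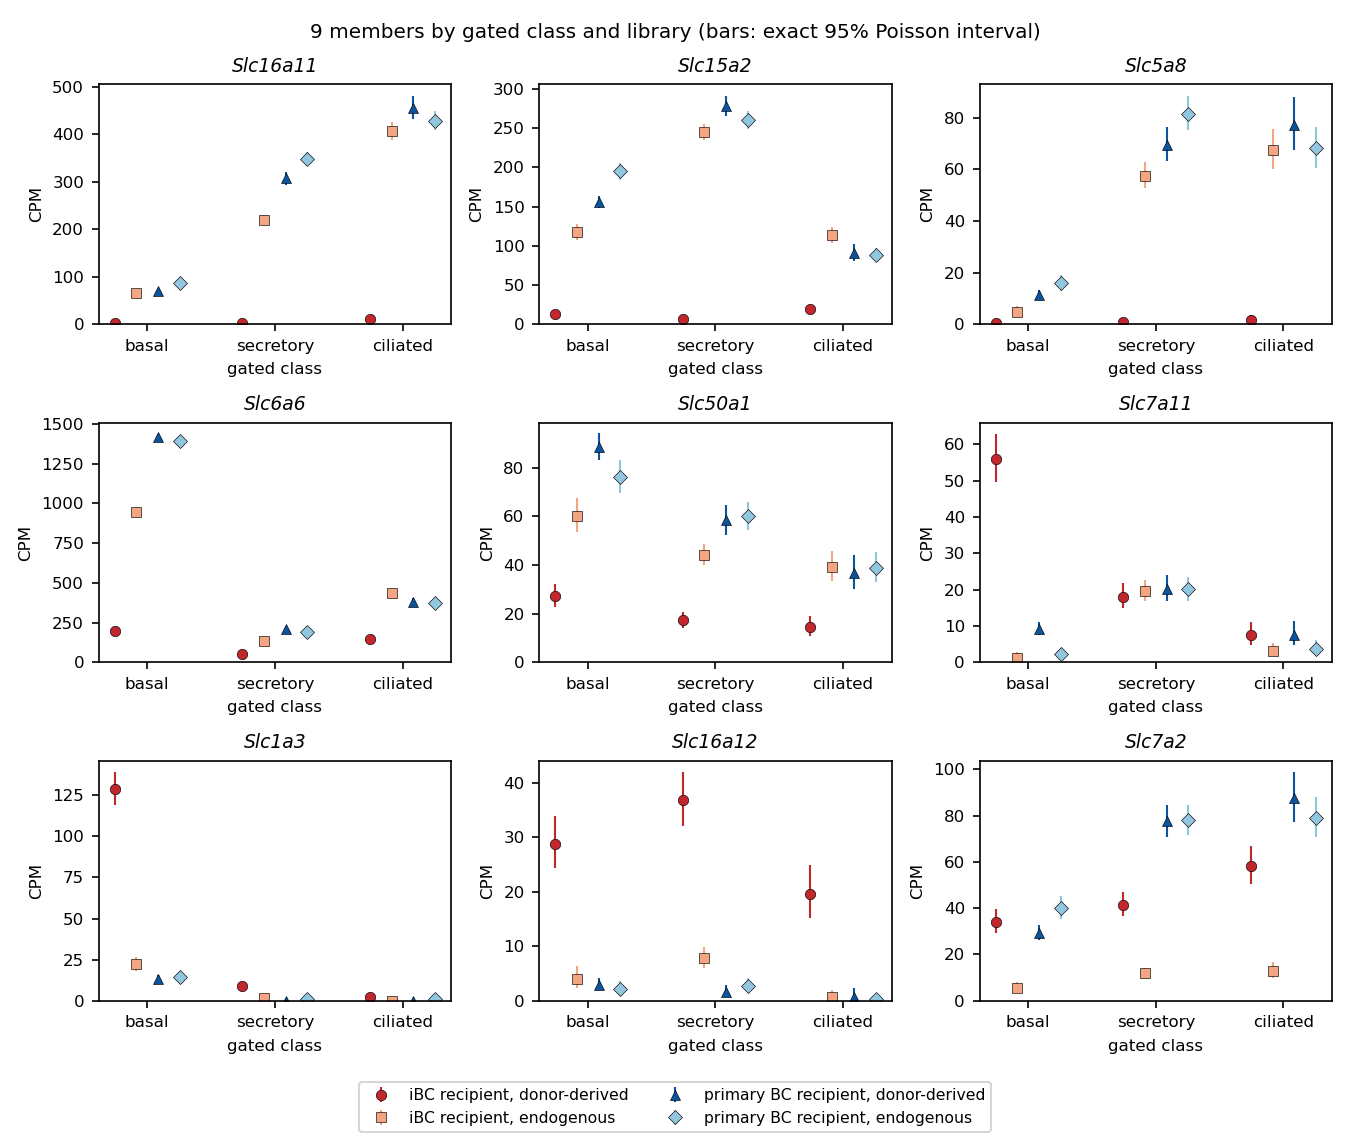
Levels of 9 members in CPM (vertical axes, 1 panel each) in basal, secretory and ciliated sums of the 4 libraries; points are single library sums and bars are exact 95% Poisson intervals, which cover counting error only. Slc16a11, Slc15a2, Slc5a8, Slc6a6 and Slc50a1 are lowest in iBC donor-derived cells in each class, Slc1a3 and Slc7a11 stand out in iBC donor-derived basal cells, and Slc7a2 is lowest in iBC endogenous cells.

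Slc15a2 (PEPT2), the proton-coupled carrier that takes up di- and tripeptides, lies on the minus strand of chromosome 16 at 36750177 to 36784962. In secretory cells it was at 6.19 CPM in iBC donor-derived and 245 CPM in iBC endogenous cells, against 278 CPM in primary donor-derived and 260 CPM in primary endogenous cells. Basal levels were 13.3, 117, 156 and 195 CPM and ciliated levels 19.7, 114, 90.7 and 88.2 CPM in the same order. The iBC donor-derived cells were the lowest in every class, by 39.6-fold (28.7 to 56.1), 8.81-fold (6.83 to 11.5) and 5.79-fold (4.49 to 7.58) in secretory, basal and ciliated cells of the iBC recipient. More transcript was left than for Slc16a11: 9.12% of iBC donor-derived secretory cells had a UMI, or 3.85% after thinning (2.06% to 6.49%), against 90.2% and 65.3% of iBC endogenous secretory cells. The lysosomal relative Slc15a4 was at 22.1 CPM in iBC donor-derived and 11.9 CPM in iBC endogenous whole libraries and was not called. Of the vitamin C transporters, Slc23a1 was 12.5-fold higher (8.04 to 20.5) in iBC donor-derived secretory cells, at 30.6 CPM against 2.44 CPM in iBC endogenous, 5.86 CPM in primary donor-derived and 2.73 CPM in primary endogenous secretory cells. Ciliated cells had the highest levels of that gene in all 4 libraries. In iBC donor-derived secretory cells 14.8% had a Slc23a1 UMI after thinning (35.3% unthinned), against 1.89% of iBC endogenous secretory cells (3.82%) and 0.509% of iBC donor-derived basal cells (0.754%). The 10 ciliated markers together stood at 502 CPM in iBC donor-derived and 835 CPM in iBC endogenous secretory sums. Among the choline transporter-like genes, Slc44a1 was at 31.8 CPM in iBC donor-derived and 41.1 CPM in iBC endogenous whole libraries, Slc44a2 at 27.4 and 22.3 CPM, and Slc44a4 at 27.5 and 40.4 CPM, and no member of that group was called. In Slc28a3 the whole-library levels of 9.90 and 23.1 CPM became a call only with TMM scaling.

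Of the 4 sugar carriers, Slc50a1 (SWEET1) was lower in iBC donor-derived cells in all 3 classes. It was at 27.2, 60.3, 88.7 and 76.3 CPM in basal cells of the iBC donor-derived, iBC endogenous, primary donor-derived and primary endogenous libraries, at 17.3, 44.1, 58.3 and 59.97 CPM in secretory cells, and at 14.5, 39.3, 36.7 and 38.96 CPM in ciliated cells. The folds within the iBC recipient were 2.21 (1.80 to 2.73), 2.55 (2.06 to 3.19) and 2.72 (1.97 to 3.80), all lower in donor-derived cells. Slc5a9 (SGLT4), which carries mannose and related sugars in human cells, was 4.73-fold higher (3.72 to 6.07) in iBC donor-derived secretory cells, at 46.7 CPM against 9.88 CPM in iBC endogenous, 27.4 CPM in primary donor-derived and 29.5 CPM in primary endogenous secretory cells. There the iBC endogenous cells were lowest as well as the donor-derived cells highest. The glucose transporter Slc2a1 (GLUT1) was at 24.97, 29.8, 27.3 and 25.4 CPM in whole libraries, the narrowest spread of the 4.

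No bicarbonate, anion or cation-chloride carrier was called in the iBC recipient's whole libraries, but 2 were called in single classes. Slc12a7 (KCC4), a potassium-chloride cotransporter, was 2.96-fold higher (2.00 to 4.49) in iBC donor-derived basal cells, at 21.3 CPM against 7.19 CPM in iBC endogenous, 14.9 CPM in primary donor-derived and 12.4 CPM in primary endogenous basal cells. Slc26a2, a sulfate carrier, was 3.27-fold lower (2.69 to 3.99) in iBC donor-derived ciliated cells, at 37.01 CPM against 121 CPM in iBC endogenous, 116 CPM in primary donor-derived and 111 CPM in primary endogenous ciliated cells, while its basal levels of 93.3, 83.3, 97.5 and 63.0 CPM showed no such gap. The anion exchanger Slc4a2 (AE2) was at 38.1, 33.6, 40.2 and 37.4 CPM in whole libraries.

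Metal carriers differed class by class. In basal cells the zinc importer Slc39a4 (ZIP4) was 2.85-fold higher (2.34 to 3.49) in iBC donor-derived cells, at 81.3 CPM against 28.6 CPM in iBC endogenous, 46.8 CPM in primary donor-derived and 33.6 CPM in primary endogenous cells. In ciliated cells it was at 168, 301, 163 and 174 CPM, so that there the iBC endogenous cells were the high ones. Slc39a6 (ZIP6), another zinc importer, was 8.51-fold lower (6.28 to 11.8) in iBC donor-derived ciliated cells, at 13.3 CPM against 113 CPM in iBC endogenous, 144 CPM in primary donor-derived and 105 CPM in primary endogenous ciliated cells. Its basal levels were 21.1, 16.3, 14.7 and 12.4 CPM, so that iBC donor-derived ciliated cells had no more of it than basal cells. Slc39a6 lies on chromosome 18 at 24579881 to 24603817 on the minus strand and overlaps Elp2 on the other strand, and no source used here says if reads were counted by strand. The same holds for Slc23a1 and Paip2, Slc31a1 and Cdc26, Slc39a9 and Erh, Slc25a11 and Rnf167, Slc2a12 and Tbpl1, Slc11a2 and Gm5475, and Slc1a1 and 4430402I18Rik, whose reads could be shared, and Slc35a3 overlaps Gm43191 on its own strand. In all, 18 members overlap a coding gene. The iron importer Slc11a2 (DMT1) was 3.73-fold lower (2.76 to 5.13) in secretory and 2.58-fold lower (2.11 to 3.16) in ciliated iBC donor-derived cells. Its ciliated levels were 37.9 CPM in iBC donor-derived and 97.6 CPM in iBC endogenous cells, against 29 and 38 CPM in primary donor-derived and endogenous cells, and its secretory levels 8.30, 30.97, 32.7 and 31.3 CPM. The copper importer Slc31a1 (CTR1) was at 47.4, 58.1, 68.8 and 70.1 CPM in whole libraries and was not called. Neither were the zinc exporters to vesicles Slc30a5 and Slc30a7.

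The 17 Slc25 genes, Slc25a17 of peroxisomes included, differed little. None was called in whole libraries, basal or ciliated cells of the iBC recipient, and 14 of 17 stood above 0 in whole libraries, with a median log2 ratio of 0.18 that lay near the 0.20 of all features. Slc25a24, a calcium-regulated carrier of ATP-magnesium and phosphate, was the exception in secretory cells, at 25.2 CPM in iBC donor-derived and 7.22 CPM in iBC endogenous cells (3.498-fold, 2.60 to 4.75), against 10.9 and 6.42 CPM in primary donor-derived and endogenous cells. The oxoglutarate carrier Slc25a11 was at 60.2, 52.6, 69.1 and 72.5 CPM in whole libraries, and Slc25a39, needed for mitochondrial glutathione, at 67.7, 47.3, 57.4 and 54.6 CPM. The 4 nucleotide sugar carriers of the Golgi were not called within the iBC recipient. Slc35a1 (CMP-sialic acid) was at 27.8, 42.7, 55.5 and 53.6 CPM in whole libraries and Slc35a3 (UDP-N-acetylglucosamine) at 19.5, 31.4, 44.2 and 51.1 CPM, with iBC donor-derived cells lowest for both, and TMM scaling made both a call in secretory cells. Among fatty acid carriers, Slc27a2 was 2.91-fold lower (2.504 to 3.40) in whole libraries, at 10.6 CPM in iBC donor-derived and 30.9 CPM in iBC endogenous cells. Within ciliated cells it was at 49.4 and 98.3 CPM, just under the 2-fold limit with 5 CPM added. In secretory cells it was at 6.84 and 19.4 CPM, just under the 20 CPM needed for a call. With TMM scaling Slc27a2 was called lower in both classes. Of the scaffold genes, Slc9a3r2 (NHERF2) was called higher in whole libraries (2.33-fold, 2.05 to 2.67; not with TMM scaling) and basal cells (2.72-fold, 1.98 to 3.77), at 35.1 CPM in iBC donor-derived and 15.04 CPM in iBC endogenous whole libraries. Of the remaining carriers, the inositol carrier Slc5a3 was at 44.6, 48.8, 51.2 and 39.4 CPM and the acetyl-CoA carrier Slc33a1 at 17.3, 19.7, 28.3 and 30.6 CPM in whole libraries.

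In the primary BC recipient, few members differed between donor-derived and endogenous cells. Of 72 members with 20 CPM in either whole library, 0 were called higher (0.0933% of features were) and 1 lower (0.949%). That member was Slc38a1, at 8.23 CPM in primary donor-derived and 29.7 CPM in primary endogenous cells (3.61-fold, 3.10 to 4.22). In basal cells 0 of 61 members were higher (0.143% of features) and 0 lower (0.478%), in ciliated cells 0 of 61 were higher (0.393%) and 0 lower (0.0436%), and in secretory cells 0 of 61 were higher (0.328%) and 1 lower (0.349%). The secretory call was again Slc38a1, at 21.1 CPM in primary donor-derived and 56.3 CPM in primary endogenous cells (2.67-fold, 2.19 to 3.27). Few features of any kind were called in this recipient, so that the members' counts do not set them apart. Slc7a11, the furthest higher in iBC donor-derived basal cells, was also higher in primary donor-derived than primary endogenous basal cells, at the levels given above. Both of those sums were under the 20 CPM needed for a call. Slc16a11, Slc15a2, Slc5a8, Slc6a6 and Slc50a1, which were lower in iBC donor-derived cells, had close levels in the primary BC recipient. Whole-library ratios of primary donor-derived to primary endogenous cells were 0.806 (0.777 to 0.836) for Slc16a11, 0.976 (0.939 to 1.02) for Slc15a2, 0.755 (0.693 to 0.821) for Slc5a8, 1.28 (1.252 to 1.30) for Slc6a6 and 1.15 (1.07 to 1.23) for Slc50a1. Of the 71 members not called in whole libraries, 70 lay within 0.5 of 0 on the log2 scale.

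Between recipients, donor-derived cells differed in 7 members called higher in iBC than in primary donor-derived cells (4.57% of features) and 7 called lower (4.44%), of 81 with 20 CPM in either library. This comparison uses the iBC donor-derived library of the comparison above, so that its calls are no second reading of it. It was made on whole libraries only, and these differed in their cells. Basal cells were 25.5% of filtered iBC donor-derived and 56.5% of filtered primary donor-derived cells, and secretory cells were 21.8% and 15.3%. The part of this mix in the calls was not tested. Slc30a4 (ZnT4), a zinc exporter, was at 27.3 CPM in iBC donor-derived and 9.20 CPM in primary donor-derived cells (2.97-fold, 2.56 to 3.46), but iBC endogenous cells were at 18.8 CPM and primary endogenous cells at 8.87 CPM. Slc4a4 was at 64.8 CPM in iBC donor-derived and 24.7 CPM in primary donor-derived cells (2.63-fold, 2.39 to 2.89), and Slc39a8 at 46.9 and 14.6 CPM (3.21-fold, 2.85 to 3.62). Both preferred secretory cells, where Slc4a4 was at 114 and 45.7 CPM and Slc39a8 at 99.0 and 45.02 CPM. In whole libraries Slc35a3 was at 19.5 and 44.2 CPM (2.27-fold lower, 2.03 to 2.54) and the sodium-bicarbonate cotransporter Slc4a7 (NBCn1) at 14.9 and 36.8 CPM (2.47-fold lower, 2.17 to 2.81). The other members called higher were Slc1a3 (53.7 CPM in iBC donor-derived and 6.72 CPM in primary donor-derived cells), Slc16a12 (30.7 and 2.40 CPM), Slc9a3r2 (35.1 and 12.3 CPM) and Slc7a11 (30.9 and 12.1 CPM). Of those called higher, Slc30a4, Slc1a3, Slc16a12, Slc9a3r2 and Slc7a11 reached 20 CPM only in the iBC donor-derived library and became members through it. The other members called lower were Slc16a11 (3.91 CPM in iBC donor-derived and 204 CPM in primary donor-derived cells), Slc5a8 (0.791 and 37.3 CPM), Slc15a2 (12.3 and 196 CPM), Slc6a6 (115 and 866 CPM) and Slc50a1 (20.3 and 72.1 CPM).

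Endogenous cells of the recipients differed in few members. In whole libraries 0 of 73 were called higher (1.09% of features) in iBC than in primary endogenous cells and 1 lower (2.03%), Slc7a2, at 10.8 CPM in iBC endogenous and 59.5 CPM in primary endogenous cells (5.53-fold, 4.81 to 6.37). The median feature stood at -0.12 on the log2 scale there and at -0.19 in secretory cells. In basal cells 1 of 62 was higher (1.44%), Slc30a4, at 27.3 CPM in iBC endogenous and 10.9 CPM in primary endogenous cells, and 1 lower (1.5%), Slc7a2, by 7.30-fold (4.87 to 11.4). In secretory cells 0 of 60 were higher (1.32%) and 3 lower (2.83%), namely Slc7a2 by 6.63-fold (5.38 to 8.23), Slc5a9 by 2.99-fold (2.32 to 3.87) and Slc35a3 by 2.46-fold (2.15 to 2.81), the last of which was not called with TMM scaling. In ciliated cells 4 of 68 were higher (2.39%) and 1 lower (2.66%). Those higher in iBC endogenous ciliated cells were Slc4a4 by 4.90-fold (3.05 to 8.25), Slc1a1 by 3.34-fold (2.36 to 4.81), Slc30a4 by 2.91-fold (1.97 to 4.41) and Slc11a2 by 2.57-fold (2.14 to 3.10), and Slc7a2 was lower by 6.08-fold (4.57 to 8.22). Slc7a2 was therefore low in iBC endogenous cells of every class. Slc1a1 became a member only through the iBC endogenous whole library.

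Over the 13 comparisons of whole libraries and classes, 28 of the 86 members were called at least once, and 47 were neither called in any of them nor preferred 1 class. The same counts were not made for all features, so these do not say how the members compare with other genes. Some of the 28 became members only through the library in which they were high. These 47 had their highest whole-library level between 20.2 CPM (Slc38a9) and 403 CPM (Slc25a5). They include the mitochondrial carriers Slc25a1 (citrate), Slc25a10 (dicarboxylates), Slc25a28 and Slc25a37 (the mitoferrins, which carry iron), Slc25a16, Slc25a32, Slc25a35, Slc25a36, Slc25a46 and Slc25a51 (NAD). They also include the zinc transporters Slc30a9, Slc39a1, Slc39a7 and Slc39a10, the creatine carrier Slc6a8, the amino acid carriers Slc7a6 and Slc38a10, the heme carrier Slc48a1, Slc22a15, Slc22a23 and Slc35a4.

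Genes that work beside the carriers were counted by the same rule. In the iBC recipient, 3.19% of all features were called higher and 3.01% lower in whole libraries. These shares were 3.84% and 2.96% in basal, 5.81% and 3.18% in secretory, and 2.84% and 4.15% in ciliated cells. The lists below hold too few genes for their counts to be set apart from such shares. Of 12 transporter partners and sodium pump subunits, 0 of 11 were called in the iBC recipient's whole libraries, basal or secretory cells, and 1 of 11 was lower in ciliated cells, Atp1b1, a sodium pump subunit, at 425 CPM in iBC donor-derived and 989 CPM in iBC endogenous cells. Of 18 organic anion and ABC transporters, 1 of 9 was higher in whole libraries, 2 of 9 were higher and 1 lower in basal cells, 2 of 9 higher in secretory cells, and 1 of 7 higher and 2 lower in ciliated cells. The organic anion transporter Slco1a5 was at 33.01 CPM in iBC donor-derived and 5.92 CPM in iBC endogenous basal cells and at 122 and 48.6 CPM in secretory cells, the prostaglandin transporter Slco2a1 was at 25.9 and 6.11 CPM in secretory cells, and the cholesterol exporter Abcg1 was at 7.36 and 20.1 CPM in basal cells. Of 16 targets of ATF4, the factor whose element stands in the Slc7a11 promoter printed above, 0 of 7 were called in basal cells, where Slc7a11 was, 0 of 4 in whole libraries, 0 of 1 in secretory cells, and 1 of 5 in ciliated cells, Ddit4, at 50.6 CPM in iBC donor-derived and 12.3 CPM in iBC endogenous cells. Of 17 features of glycolysis and lactate handling, 13 had the level needed in whole libraries, basal and secretory cells, and 14 in ciliated cells. In basal cells 0 of 13 were called. Ldhb, a lactate dehydrogenase subunit, was called higher in whole libraries (169 CPM in iBC donor-derived and 61.7 CPM in iBC endogenous cells), secretory cells (197 and 65.4 CPM) and ciliated cells (326 and 90.9 CPM). In ciliated cells the hexokinase gene Hk2 was lower, at 9.83 and 42.1 CPM, and so was the phosphofructokinase gene Pfkl, at 68.8 and 150.3 CPM. In the primary BC recipient these lists had 0 members called in any class, where 0.0436% to 0.478% of all features were called in either direction. In its whole libraries 1 of 12 transporter partners was lower (0.949% of all features were), Fxyd5, a sodium pump regulator, at 0.789 CPM in primary donor-derived and 23.9 CPM in primary endogenous cells.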

How the data were processed

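Tracheal cells were profiled by single-cell RNA sequencing, and the deposited matrices hold whole-number UMI counts per gene and cell barcode for the 4 libraries. The submitters' processing notes name 3 tools (Cell Ranger, Seurat and STARsolo) and the mouse build GRCm38. Versions, the tool that made the counts, the end of the transcript that was read and the use of strand are not given in the sources used here. The lowest barcode totals of 2910 to 4296 UMIs show that the deposited barcodes had been reduced beforehand. The counts were used as deposited.

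Barcodes were removed where fewer than 500 genes were detected or mitochondrial genes held over 20% of UMIs, and doublets were called per library with Scrublet in scanpy 1.11.5 and removed (22 and 56 barcodes in donor-derived and endogenous cells of the iBC recipient, 11 and 15 for the primary BC recipient). Cells were scored by the mean log-normalised level (per 10000 UMIs) of each marker list. Basal cells scored at least 1.25 on their own list, below 2.5 on the secretory list and below 0.8 on the ciliated list. Secretory cells scored at least 2.5 on their own list, below 0.75 on the basal list and below 0.8 on the ciliated list. Ciliated cells scored at least 1.5 on their own list and below 0.75 on the basal list, with no limit on the secretory list. Cells at 0.6 or more for immune or 0.8 or more for hillock markers were set apart. The values of these limits were chosen after seeing the data, and from 0 to 165 cells per class and library lay within 0.1 of a limit. UMIs were summed per class over the cells that remained, and per whole library over all barcodes, including those removed above. Each sum was scaled to its own CPM. Ratios are log2 of CPM plus 5. Printed folds are ratios of CPM without the added 5 CPM. The calculation was tested on simulated counts. TMM factors came from edgeR 4.0.16 in R 4.3.3, and intervals from scipy 1.17.1. Thinned shares used 5000 UMIs drawn from each cell, leaving out shallower cells. Promoters came from RefSeq (GRCm38.p6).

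The genes named are the 20 highest members, the 5 highest and 5 lowest ratios among called members with at least 50 UMIs per class and recipient, up to 6 members per preferred class, 4 features on each side of the 20 CPM limit, and members counted in groups of 5 or fewer. Others were named after their values were seen. The members, their roles, the gene lists and the rule were chosen with earlier results of these data known, and nothing here is independent support for them. The values of 2 members are not reported here.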

Additional observations from a re-analysis of the deposited data

How the results depend on the processing

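No paired analysis was possible because each group has 1 library and the recipients received different donor cells. Alternatives were TMM scaling, added levels of 1 or 20 CPM in place of 5, no 20 CPM minimum, members chosen at 10 or 50 CPM, and a mean over cells. For class sums they were also other gates and doublets kept, and for whole libraries only the cells that passed the filters. Of 274 recomputed counts, 233 stayed within 1.5 times. Of 270 ratios of named members, 238 moved by less than the half-width of their counting interval and none reversed. These 238 include every ratio recomputed with no 20 CPM minimum or with members chosen at 10 or 50 CPM. Those settings cannot change a ratio, so that 238 overstates how steady the ratios were. The other 32 moved by more (24 with 20 CPM added, 6 with 1 CPM added, 1 with TMM scaling and 1 under the stricter gate). Under every alternative, 2 of the 27 named ratios stayed within that half-width. The cause of the changes was not tested. In the iBC recipient, donor-derived against endogenous, whole libraries had 3 members higher (5 as reported) with TMM scaling, 3 with 20 CPM added and 2 at the 50 CPM limit, and 4 lower (9) with 20 CPM added and at 50 CPM. Basal cells had 3 higher (7) at 50 CPM. Secretory cells had 9 higher (5) with 1 CPM added, 3 with 20 CPM added and 1 at 50 CPM, and 11 lower (7) with TMM scaling and 4 at 50 CPM. Ciliated cells had 1 higher (2) with 20 CPM added and 4 with no minimum, and 5 lower (10) at 50 CPM. In the primary BC recipient, whole libraries and secretory cells had 0 lower (1) with 20 CPM added and at 50 CPM, and ciliated cells had 1 lower (0) with no minimum. Donor-derived cells of the recipients had 2 higher (7) with 20 CPM added and at 50 CPM. Endogenous cells had 1 higher (0) in whole libraries with 1 CPM added; in basal cells 0 higher (1) with 20 CPM added, at 50 CPM, by mean over cells and under the looser gate, and 2 lower (1) with no minimum; in secretory cells 1 lower (3) with 20 CPM added; and in ciliated cells 1 higher (4) with 20 CPM added and at 50 CPM. Members preferring a class were, for basal cells (1), 4 with 1 CPM added, 0 with 20 CPM added, and 2 at 10 CPM, by mean over cells and under both other gates; for secretory cells (2), 1 with 20 CPM added and at 50 CPM; and for ciliated cells (14), 7 with TMM scaling, 8 with 20 CPM added and 3 at 50 CPM. Levels of a few UMIs, such as Slc5a8 and Slc16a11 in iBC donor-derived cells, have wide intervals, and 1 library per group leaves differences between animals unmeasured.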
